A study of Mus musculus with 6 samples.

Results

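A set of 10 genes of prostaglandin signalling was chosen by name, because they encode prostanoid receptors, enzymes of prostanoid synthesis and the enzyme that starts prostaglandin breakdown. Of the 10 genes, 9 were measured, among 19938 genes in all: the receptor genes Ptger1, Ptger2, Ptger3, Ptger4, Ptgir and Ptgfr, the synthesis genes Ptgs2 and Ptgis, and Hpgd. Ptgs1 was not analysed here. Each measured gene was read through its only probe set, the group of probes on the array that target it. The tissue was the ascending aorta (3 arrays) and the descending aorta (3 arrays) of untreated wild-type C57BL/6 mouse embryos, 13.5 days postcoitum. The segments were compared because smooth muscle of the ascending aorta comes mostly from cardiac neural crest, and that of the descending aorta from mesoderm. The labels name no embryo, litter or pool behind an array, so p-values measure only the spread between these samples. Values are log2 expression after the authors' RMA, a normalization that makes the arrays' distributions alike.

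Prostaglandins are short-lived lipid signals made from arachidonic acid, which phospholipases A2 release from membranes. The cyclooxygenases, encoded by Ptgs1 and the inducible gene Ptgs2, turn it into prostaglandin H2, and terminal synthases turn that into prostacyclin, prostaglandin E2 and other products. The products act on G protein-coupled receptors that raise cAMP, lower it or release calcium, and vascular smooth muscle relaxes or contracts accordingly. In the fetus, prostaglandin E2 acting on the receptor EP4 keeps the ductus arteriosus, the vessel that joins the pulmonary artery to the aorta, relaxed.

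Ascending replicate 3 resembled the descending arrays across the whole array. Across genes, which are not independent replicates, its mean Pearson's r was 0.996 with descending replicates 1 to 3, against 0.988 with ascending replicates 1 and 2. It was singled out by its values and not by its label, so p-values of the fit without it are likely too small, and the values of the 9 genes and of the list medians are given with and without it. As a check of the labelled vessel wall, the 5 measured smooth muscle markers had a mean log2 level between 11.7 and 12.0 on the 6 arrays, with smooth muscle actin Acta2 at 13.6 to 13.8. Single markers varied more: Myh11 read 10.39, 9.42 and 10.19 on ascending replicates 1, 2 and 3 and 10.42 to 10.63 on the descending arrays. Of the 5, 2 had a higher and 3 a lower mean in ascending aorta, from 0.17 for Tagln to -0.53 for Myh11. With so few arrays, every value has limited precision.

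Ptger3 and Ptgs2 were higher, and Ptgfr lower, on ascending replicates 1 and 2 than on every other array, and ascending replicate 3 had values at the descending level. Ptger4 was high on ascending replicate 1 alone. The other 5 genes, Ptger1, Ptger2, Ptgir, Ptgis and Hpgd, had smaller differences. Over all 6 arrays none of the 9 passed an adjusted p of 0.05 in limma, the linear-model test fitted across all genes, and 0% of all genes did. At an unadjusted p under 0.05 there was 1 of the 9 in limma, Ptgfr, against 9.29% of all genes. The segments did not overlap for 1 of the 9, Ptger2, or 11.1%, against 14.8% of all genes. Without ascending replicate 3, Ptger3, Ptgs2 and Ptgfr passed, or 33.3% of the 9, against 4.68% of all genes. Ptgfr and Ptgs2, 2 of the 9, also passed with descending replicate 1 left out as well, where 2.35% of all genes did. That fit uses part of the same arrays and was added after the values were seen. Its p-values are likely too small as well, and it is no independent support.

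**Figure D1:**
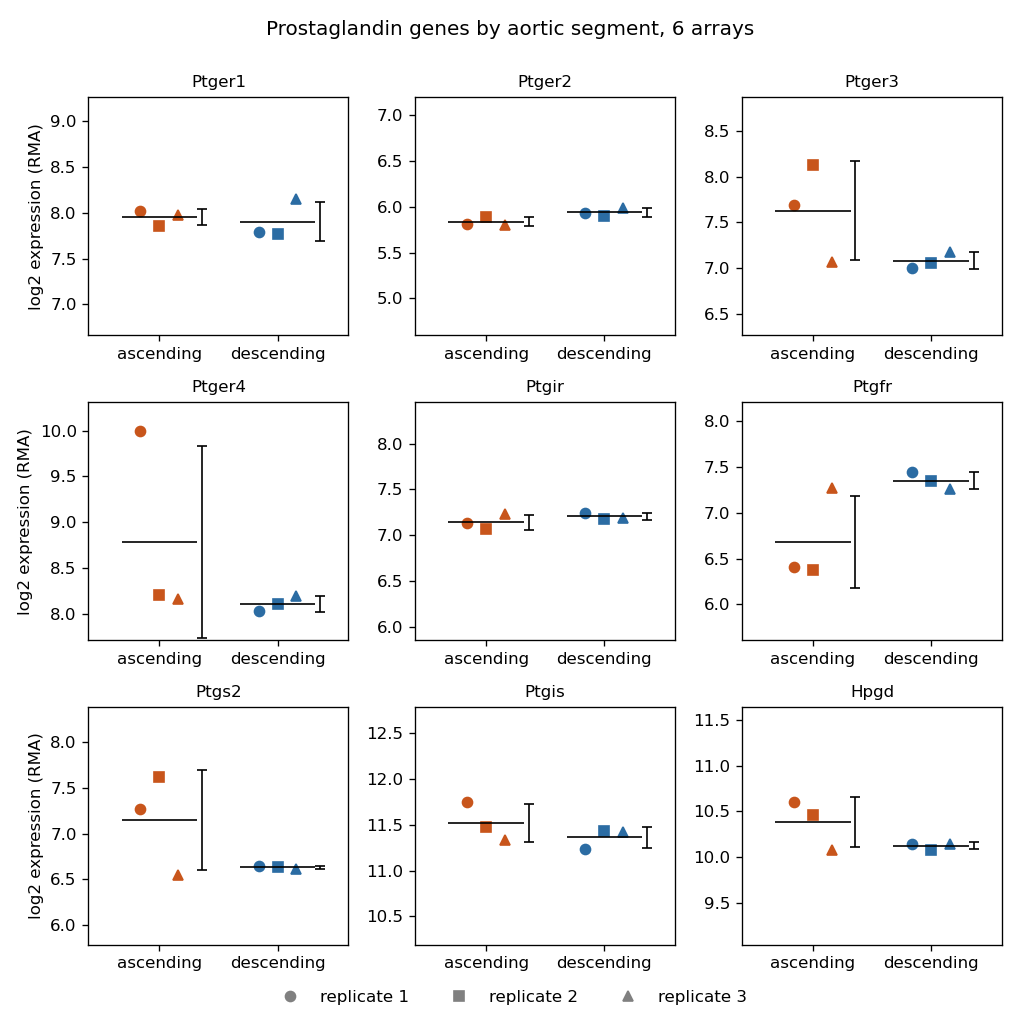
Log2 expression (y axis, RMA values) of the 9 prostaglandin genes in ascending and descending aorta. Each point is 1 array, its shape gives the replicate number, horizontal lines are means and bars are SD (n = 3), and every panel spans the same log2 range. Ptger4 stands out on ascending replicate 1 at 9.999, and for Ptger3, Ptgs2 and Ptgfr the triangle of ascending replicate 3 lies at the level of the descending arrays.

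Because Ptger3, Ptgs2, Ptgfr and Ptger4 carry these patterns, the 250 bases before the start of each are shown, from RefSeq on GRCm38.p6. The windows lie at chr3:157566626-157566875, plus strand, at chr1:150099781-150100030, plus strand, at chr3:151837529-151837778, minus strand, and at chr15:5244188-5244437, minus strand. Each is written 5′ to 3′ on the gene's strand, with GC boxes (GGGCGG, bound by Sp1-type factors) and CCAAT boxes (CCAAT) in capitals.
Ptger3: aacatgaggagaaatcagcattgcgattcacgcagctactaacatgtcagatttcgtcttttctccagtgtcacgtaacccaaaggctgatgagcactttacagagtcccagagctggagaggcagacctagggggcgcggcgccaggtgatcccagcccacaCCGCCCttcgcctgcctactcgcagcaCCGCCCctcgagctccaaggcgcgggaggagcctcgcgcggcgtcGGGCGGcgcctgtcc
Ptgs2: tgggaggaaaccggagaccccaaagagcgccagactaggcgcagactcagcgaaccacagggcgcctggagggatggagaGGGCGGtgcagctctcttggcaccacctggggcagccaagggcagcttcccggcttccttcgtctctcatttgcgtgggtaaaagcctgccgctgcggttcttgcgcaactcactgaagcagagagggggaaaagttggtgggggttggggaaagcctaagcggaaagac
Ptgfr: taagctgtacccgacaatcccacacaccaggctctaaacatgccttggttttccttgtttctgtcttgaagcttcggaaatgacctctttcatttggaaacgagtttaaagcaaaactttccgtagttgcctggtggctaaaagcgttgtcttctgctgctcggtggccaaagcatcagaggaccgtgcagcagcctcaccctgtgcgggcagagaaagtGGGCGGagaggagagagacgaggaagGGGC
Ptger4: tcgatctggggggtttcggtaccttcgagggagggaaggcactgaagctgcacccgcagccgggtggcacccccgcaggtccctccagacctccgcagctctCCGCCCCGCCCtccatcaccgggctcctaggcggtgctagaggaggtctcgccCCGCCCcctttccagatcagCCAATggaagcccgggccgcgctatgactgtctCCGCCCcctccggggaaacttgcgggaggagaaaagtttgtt
RefSeq windows were found for 7 of the 9 genes. They run from 250 bases before to 50 bases after the annotated start, and each window of 300 bases was searched on both strands. Ptger3 and Ptgs2 had closely similar patterns over the 6 arrays, each gene centred on its own mean. Their promoters differ in these letters: Ptger3 has 3 GC boxes, beginning 87, 60 and 15 bases before the start, and Ptgs2 has 1, beginning 170 bases before it. Ptger4 has 4 GC boxes, of which the pair beginning 148 and 143 bases before the start overlaps by its end letter, and a CCAAT box 75 bases before the start. Ptgfr has GC boxes beginning 30 and 4 bases before the start, and the second runs past the printed end, so that its first 4 letters alone are shown. The GC box occurs in 6 of the 7 windows, and in 35.7% of all 32851 promoter windows. Just after its annotated start Ptgs2 holds the core of a cAMP response element (TGACG, here on the opposite strand, 14 bases after the start) and an E-box (CACGTG, 17 bases after the start), which overlap, and no other window of the 7 holds either. Of all windows, 20.8% hold the first and 7.15% the second. The CCAAT box is in 2 of the 7 windows and in 37.4% of all. The TATA box (TATAAA) is in 1 of the 7, that of Hpgd, where it begins 5 bases after the annotated start, and in 13.6% of all. A GATA site (AGATAA, in 11.2% of all) and the CArG box that serum response factor binds (in 1.63% of all) are in 0 of the 7. A match describes letters in a window and is not evidence that a factor binds there.

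Ptger3 encodes EP3, a prostaglandin E2 receptor that mainly couples to Gi and lowers cAMP. It read 7.69, 8.13 and 7.06 on ascending replicates 1, 2 and 3, and 7.00011, 7.06 and 7.18 on descending replicates 1, 2 and 3. The high values are those of ascending replicates 1 and 2, while ascending replicate 3 lies inside the descending range, so the segments overlap. The ascending mean was 7.63 ± 0.54 (SD, n = 3) and the descending mean 7.08 ± 0.09 (SD, n = 3). The difference was 0.55 ± 0.24 (SE) on the log2 scale, with a 95% confidence interval from -0.01 to 1.11 (adjusted p = 0.538 by limma). When ascending replicate 3 was left out, Ptger3 was higher in ascending aorta by 0.83 ± 0.14 (SE), a 1.78-fold difference (adjusted p = 0.0158 by limma), where 2.07% of all genes passed in that direction. With descending replicate 1 also left out the difference was 0.79 and no longer passed (adjusted p = 0.0702 by limma).

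Ptgs2 encodes the inducible cyclooxygenase, COX-2. It read 7.27, 7.62 and 6.55 on ascending replicates 1, 2 and 3, and 6.65, 6.63 and 6.62 on descending replicates 1, 2 and 3. Here too replicates 1 and 2 of the ascending aorta are the high ones, and replicate 3 lies just below all descending arrays. The means were 7.15 ± 0.55 (SD, n = 3) and 6.63 ± 0.014 (SD, n = 3), and the difference was 0.52 ± 0.24 (SE, adjusted p = 0.546 by limma). Ptgs2 was 1.76-fold higher in ascending aorta without ascending replicate 3, at 0.82 ± 0.12 (SE) on the log2 scale (adjusted p = 0.00872 by limma). It passed with descending replicate 1 left out too, in a fit to part of the same arrays (adjusted p = 0.0421 by limma). Of the 36 pairs among the 9 genes, Ptger3 and Ptgs2 had the closest patterns, with a root mean square difference of 0.069 after each gene was centred on its own mean over the 6 arrays. The next pair was Ptger2 and Ptgir, at 0.082.

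Ptgfr encodes FP, the prostaglandin F2 alpha receptor, which couples to Gq and releases calcium. It read 6.41, 6.37 and 7.27 on ascending replicates 1, 2 and 3, and 7.45, 7.35 and 7.25 on descending replicates 1, 2 and 3. Ascending replicates 1 and 2 are the low ones, and replicate 3 overlaps the lowest descending array. The ascending mean was 6.68 ± 0.51 (SD, n = 3) and the descending mean 7.35 ± 0.10 (SD, n = 3). The difference was -0.67 ± 0.23 (SE), with a 95% confidence interval from -1.20 to -0.14 and an unadjusted p of 0.0201 (adjusted p = 0.53 by limma). Ptgfr was 1.95-fold lower in ascending aorta without ascending replicate 3, at -0.96 ± 0.10 (SE) on the log2 scale (adjusted p = 0.00188 by limma), where 2.61% of all genes passed in that direction. It passed with descending replicate 1 left out as well, at -0.91 (adjusted p = 0.0117 by limma).

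Ptger4 encodes EP4, which couples to Gs and raises cAMP. It read 9.999, 8.20 and 8.16 on ascending replicates 1, 2 and 3, and 8.03, 8.10 and 8.19 on descending replicates 1, 2 and 3. A single array is high, ascending replicate 1, which stands 1.80 above the next on the log2 scale, or 3.47-fold. The other 5 arrays lie within the range from 8.03 to 8.20. Among all 19938 genes, only Cd3g, a subunit of the T cell receptor complex, stood further above the next array on ascending replicate 1, by 2.19. The mean of Ptger4 in ascending aorta, 8.79 ± 1.05 (SD, n = 3), therefore rests on that array, against 8.11 ± 0.084 (SD, n = 3) in descending aorta. The difference was 0.68 ± 0.45 (SE, adjusted p = 0.637 by limma), and without ascending replicate 1 it was 0.073 (adjusted p = 0.867 by limma). With ascending replicate 3 left out it was 0.99 ± 0.42 (SE) and did not pass (adjusted p = 0.283 by limma).

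The receptors Ptger1, Ptger2 and Ptgir had narrower ranges. Ptger1, the gene of the calcium-linked receptor EP1, lay between 7.86 and 8.02 in ascending and between 7.77 and 8.15 in descending aorta, a difference of 0.05 ± 0.12 (SE) whose direction depended on the arrays used. Ptger2, the gene of the Gs-coupled receptor EP2, read 5.81, 5.89 and 5.80 on ascending replicates 1, 2 and 3 and 5.93, 5.90 and 5.99 on descending replicates 1, 2 and 3. The segments of Ptger2 did not overlap, but the gap between the nearest arrays was below 0.01 on the log2 scale, and the difference was -0.10 ± 0.073 (SE, adjusted p = 0.657 by limma). Its probe set had a mean at the 21st percentile of all genes, and RMA pulls small signals together, so a difference of a dim gene can be understated. Ptgir, the gene of the Gs-coupled prostacyclin receptor IP, lay between 7.06 and 7.23 in ascending and between 7.18 and 7.24 in descending aorta, and the difference was -0.06 ± 0.08 (SE, adjusted p = 0.793 by limma). The 95% confidence intervals were -0.23 to 0.33 for Ptger1, -0.27 to 0.07 for Ptger2 and -0.24 to 0.12 for Ptgir. With ascending replicate 3 left out the differences were 0.036, -0.087 and -0.11 for Ptger1, Ptger2 and Ptgir (adjusted p = 0.934, 0.708 and 0.621 by limma), and that of Ptgir was -0.027 without ascending replicate 2.

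Ptgis encodes prostacyclin synthase, which makes the vessel-relaxing prostanoid of the artery wall. It read 11.7, 11.5 and 11.3 on ascending replicates 1, 2 and 3 and 11.2, 11.4 and 11.4 on descending replicates 1, 2 and 3. The segments overlap, with the highest value on ascending replicate 1 and the lowest on descending replicate 1. The difference was 0.16 ± 0.12 (SE, adjusted p = 0.683 by limma), and 0.25 ± 0.12 (SE) without ascending replicate 3 (adjusted p = 0.35 by limma). Leaving out ascending replicate 1 gave 0.04, and leaving out descending replicate 1 gave 0.089. Its probe set lay at the 96th percentile of all genes. Hpgd encodes 15-hydroxyprostaglandin dehydrogenase, which takes the first step in the inactivation of prostaglandins. It read 10.6, 10.5 and 10.1 on ascending replicates 1, 2 and 3 and 10.1 on each descending array. Ascending replicates 1 and 2 are thus the high arrays of Hpgd as well, and replicate 3 again lies within the descending range. The difference was 0.26 ± 0.13 (SE, adjusted p = 0.568 by limma), and 0.41 ± 0.093 (SE) without ascending replicate 3, just outside the threshold (adjusted p = 0.0519 by limma). It was 0.15 without ascending replicate 1.

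**Figure D2:**
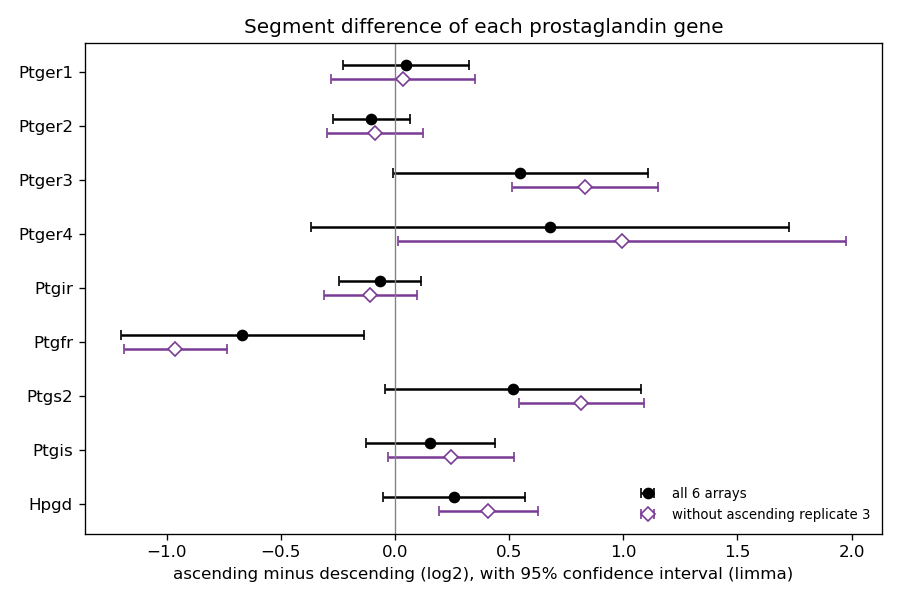
Difference between ascending and descending aorta (x axis, log2, positive where ascending is higher) for each of the 9 genes (y axis), over all 6 arrays (filled circles) and without ascending replicate 3 (open diamonds); bars are 95% confidence intervals from limma, not adjusted for the number of genes. Without ascending replicate 3 the intervals of Ptger3, Ptgs2 and Ptgfr move away from 0, to 0.51 to 1.15, 0.54 to 1.09 and -1.19 to -0.74, and the interval of Ptger4 stays the widest, at 0.01 to 1.97.

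The genes whose array values were closest to those of Ptger4, Ptgfr and Ptger3, the 3 genes with the largest SD over the 6 arrays, were named by the root mean square difference of the centred values. Symbols of unnamed genes (such as Gm and Rik symbols), of small RNAs and of pseudogenes were left out of this ranking. Closest to Ptger4 were Prss16 (0.059), a serine protease gene known from thymic epithelium, Gzma (0.065), the granzyme A gene of cytotoxic lymphocytes, Vstm2a (0.13), and Tfap2b (0.19), the gene of a transcription factor of neural crest and of the ductus arteriosus. Prss16 read 8.09 on ascending replicate 1 and between 6.21 and 6.35 on the other 5 arrays, and Tfap2b read 8.73 there and between 6.48 and 7.08 elsewhere. Closest to Ptger3 were Pgam2 (0.060), the muscle phosphoglycerate mutase gene, Tub (0.063), Ptgs2 itself (0.069) and Plcxd3 (0.070). Closest to Ptgfr were the homeobox gene Hlx (0.065), Iqgap2 (0.067), Nav3 (0.068) and Stab1 (0.072), the gene of a scavenger receptor of sinusoidal endothelium and macrophages. Likeness over 6 arrays is a description, and many genes share the split of ascending replicates 1 and 2 from the descending arrays. For 6877 of 19938 genes both arrays lay above, or both below, the whole descending range. That count does not look at ascending replicate 3, and it includes the 14.8% of all genes whose segments did not overlap.

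**Figure D3:**
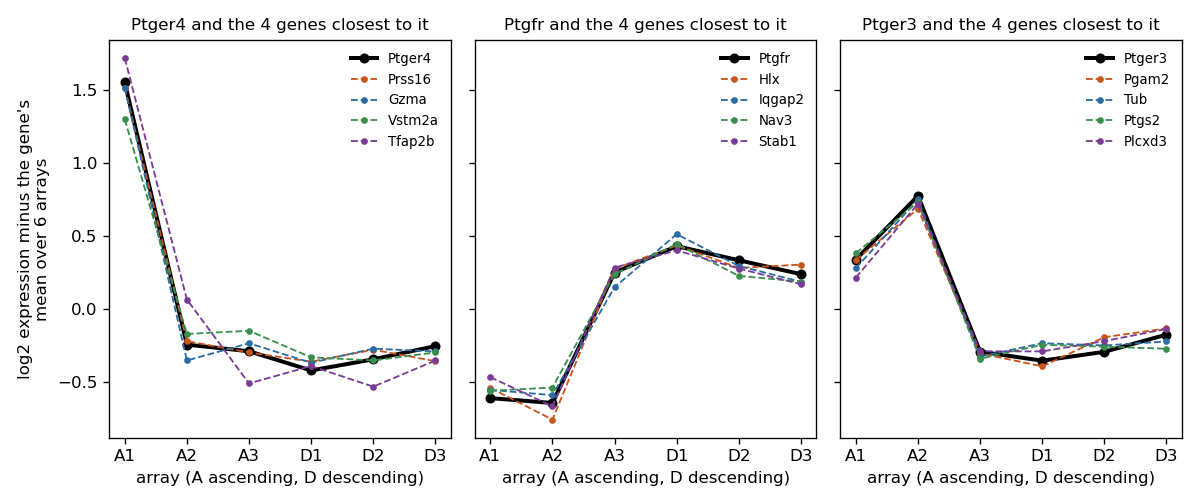
Log2 expression of Ptger4, Ptgfr and Ptger3 (thick black lines) and of the 4 genes closest to each (dashed lines), centred on each gene's mean over the 6 arrays (y axis), by array (x axis; A1 to A3 ascending, D1 to D3 descending replicates). Ptger4 and its closest genes peak on ascending replicate 1, and Ptgs2 follows Ptger3, with the highest value on ascending replicate 2.

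Markers of other cell types moved with these splits. Their part in the results was not tested, and in whole tissue fewer cells of a type and less RNA per cell cannot be told apart. With the split of Ptger3, Ptgs2 and Ptgfr moved the 7 measured mesothelium and epicardium markers, whose mean log2 level was 10.1 and 10.2 on ascending replicates 1 and 2, 8.76 on replicate 3 and 8.54 to 8.71 on the descending arrays. Of the 7, 5 passed without ascending replicate 3, all higher, where 2.07% of all genes passed higher and 2.61% lower. Wt1 and Tbx18 did not pass, and Tbx18 differed by -0.05 in that fit. The 6 cardiac muscle markers averaged 8.42 and 8.85 on ascending replicates 1 and 2, 7.91 on replicate 3 and 7.74 to 8.10 on the descending arrays. All 6 had a higher mean in ascending aorta, and 1 passed, higher: Tnnt2, at 10.8 and 11.5 on ascending replicates 1 and 2 and 8.74 to 9.06 elsewhere. On ascending replicate 1, Tnni3 and Actn2 lay within the descending range, at 8.02 and 8.10, and Myh7 read 8.83 against 8.82 on descending replicate 1. The 5 endothelial markers averaged 10.5 and 10.6 on ascending replicates 1 and 2, 11.3 on replicate 3 and 11.3 to 11.5 on the descending arrays, and 3 passed, lower. Pecam1 and Tek did not pass, at -0.23 and -0.04 without ascending replicate 3. The 6 macrophage markers averaged 8.07, 7.42 and 8.33 on ascending replicates 1, 2 and 3 and 8.05 to 8.24 on the descending arrays, with 1 lower without ascending replicate 3. Markers of thymic epithelium and of the early T lineage were read beside the high Ptger4 value on ascending replicate 1. These lists were chosen after the values were seen, and Prss16, Gzma and Cd3g, which belong to them, are among the genes found by their height on that array, so the lists are no independent evidence. Without Prss16, 5 of the other 6 thymic epithelium markers were highest there, with a mean level of 7.77 against 7.00126 to 7.13 on the other arrays. Dll4 was not, at 8.82 against 8.74 to 9.13. Krt8 read 9.25 on ascending replicate 2, 8.24 to 8.46 on ascending replicate 3 and the descending arrays, and 9.68 on ascending replicate 1. Without Gzma and Cd3g, 3 of the other 5 measured T lineage markers were highest there, with a mean level of 6.67 against 6.20 to 6.57, and Cd5 and Il7r were not: Il7r read 5.999 there and up to 6.56 elsewhere. The share of all genes that were highest on that array was not counted, so these counts have no background share beside them. The thymic transcription factor gene Foxn1 read 7.02 on ascending replicate 1 and 5.96 to 6.30 elsewhere. The 5 markers of lung and oesophagus epithelium, which were chosen earlier, averaged 6.61 on ascending replicate 1 and 6.21 to 6.36 on the others. Among them the epithelial adhesion gene Epcam, which is also in the thymic epithelium list, was highest there, at 6.82. Sftpc and Nkx2-1 were not: Sftpc read 5.380 there and 5.386 to 5.81 elsewhere, and Nkx2-1 read 6.50 there and 6.45 to 6.59 elsewhere. The 2 measured parathyroid markers, also chosen later, averaged 5.38 on ascending replicate 1 and 5.01 to 5.31 on the others. Casr was highest on that array, at 6.74 against 6.30 to 6.63, and Pth was not, at 4.02 against 3.72 to 4.11. The 5 fibroblast markers averaged 11.6 and 11.3 on ascending replicates 1 and 2, 11.8 on replicate 3 and 11.9 on each descending array, and without ascending replicate 3 the collagen gene Col1a1 and the dermatopontin gene Dpt, 2 of the 5, passed, lower. The 4 erythroid markers averaged 9.58 on ascending replicate 2 and 10.1 to 10.4 elsewhere, but Hbb-bh1 was lowest on descending replicate 1, at 8.77. The 2 measured neuron and Schwann cell markers averaged between 7.02 and 7.30 on the 6 arrays. Without ascending replicate 3, Sox10 differed by -0.52 and Tubb3 by 0.11, and neither passed (adjusted p = 0.0658 and 0.735 by limma). The lowest value of the whole table was 2.53, so no marker is listed at 0, and a probe set's background level is not known here.

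Other genes of the pathway were compared as lists. Of 87 listed genes 80 were measured, and 0 of the 80 passed over all 6 arrays in limma. At an unadjusted p under 0.05 there were 4 higher and 10 lower, where all genes gave 3.96% and 5.33%. The median difference of the 80 was -0.07 on the log2 scale, and that of all genes was -0.02. The segments did not overlap for 15 of the 80, or 18.8%, against 14.8% of all genes. In the fit without ascending replicate 3, 5 of the 80 passed, or 6.25%, against 4.68% of all genes: 3 higher and 2 lower.

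The 3 other prostanoid receptor genes each had a lower mean in ascending aorta, with a median difference of -0.16, which was -0.18 without ascending replicate 3. Tbxa2r, the thromboxane receptor gene, read 9.77, 9.37 and 9.81 on ascending replicates 1, 2 and 3 and 9.99, 9.89 and 10.04 on descending replicates 1, 2 and 3. All 3 ascending arrays lay below all 3 descending ones, including replicate 3, and the difference was -0.32 ± 0.13 (SE, adjusted p = 0.531 by limma), or -0.40 without ascending replicate 3 (adjusted p = 0.155 by limma). Tbxas1, the gene of thromboxane synthase, had the same order, from 6.79 to 7.245 in ascending and 7.255 to 7.47 in descending aorta, with a difference of -0.31 ± 0.13 (SE, adjusted p = 0.534 by limma), or -0.40 without ascending replicate 3 (adjusted p = 0.157 by limma). The 7 terminal synthases had a median difference of -0.19, which was -0.33 without ascending replicate 3, -0.093 without descending replicate 3 and 0.06 without ascending replicate 2, and 0 passed over all arrays or without ascending replicate 3.

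Upstream, 10 phospholipase A2 genes had a median difference of 0.12, 6 with a higher and 4 with a lower mean. Leaving out ascending replicate 3 gave a median of 0.13, and leaving out ascending replicate 1 gave 0.031. Pla2g12a was 0.54 ± 0.11 (SE) higher in ascending aorta without ascending replicate 3 (adjusted p = 0.0353 by limma), with values of 7.89 and 8.14 on replicates 1 and 2, 7.32 on replicate 3 and 7.39 to 7.57 on the descending arrays. Pla2g2d, a secreted phospholipase gene, differed by -0.23 ± 0.09 (SE, adjusted p = 0.53 by limma). The neighbouring genes on the chromosome were read as well. The nearest measured protein-coding gene on the lower-coordinate side of Ptgs2 on chromosome 1 is Pla2g4a, which encodes the cytosolic phospholipase A2 that feeds cyclooxygenases. Pla2g4a read 9.71, 9.69 and 9.17 on ascending replicates 1, 2 and 3 and 9.41, 9.33 and 9.34 on descending replicates 1, 2 and 3. It is thus highest on the same ascending arrays as Ptgs2, but its difference without ascending replicate 3, 0.34 ± 0.088 (SE), did not pass (adjusted p = 0.0806 by limma). Pdc, on the other side of Ptgs2, differed by -0.05 in that fit (adjusted p = 0.892 by limma). Next to Ptger3 on chromosome 3, Cth, the cystathionine gamma-lyase gene, was higher by 1.43 ± 0.14 (SE) without ascending replicate 3 (adjusted p = 0.00169 by limma), while Zranb2 on the other side differed by 0.25 (adjusted p = 0.546 by limma). The neighbours of Ptgfr, Ifi44l and Gipc2, differed by -0.18 and 0.26 in the same fit (adjusted p = 0.422 and 0.157 by limma). Next to Ptger4 on chromosome 15, Ttc33 and Dab2 differed by 0.18 and -0.81 in that fit (adjusted p = 0.477 for Ttc33 and 0.0700 for Dab2 by limma), and neither was high on ascending replicate 1 in the way of Ptger4, at 8.34 against 7.95 to 8.25 for Ttc33 and 11.6 against 10.9 to 12.3 for Dab2.

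Prostaglandin transport and further breakdown had a median difference of 0.0044 over 7 genes, and its sign depended on the arrays used: it was 0.086 without ascending replicate 3, -0.12 without descending replicate 3 and -0.07 without ascending replicate 2. Ptgr1, which reduces prostaglandin metabolites after the step made by Hpgd, differed by 0.24 ± 0.10 (SE, adjusted p = 0.534 by limma), and its segments did not overlap. The list of the lipoxygenase branch, which makes leukotrienes from the same arachidonic acid, had a higher mean in 2 of 11 genes, against 43.8% of all genes, and a median difference of -0.08. The 2 were Lta4h and Ephx2, an epoxide hydrolase gene that was listed here but does not make leukotrienes. Ephx2 differed by 0.47 ± 0.24 (SE, adjusted p = 0.564 by limma), or 0.70 without ascending replicate 3 (adjusted p = 0.103 by limma). Leaving out ascending replicate 3 gave a median of -0.15, and leaving out ascending replicate 2 gave -0.016. Lta4h, the leukotriene A4 hydrolase gene, differed by 0.22 ± 0.08 (SE), Ltb4r1, a leukotriene B4 receptor gene, by -0.22 ± 0.09, and the lipoxygenase genes Alox12 and Alox15 by -0.40 ± 0.16 and -0.28 ± 0.11 (SE). Their adjusted p-values lay between 0.53 and 0.534 by limma, and none of the 4 passed without ascending replicate 3, where the lowest was 0.119.

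Below the receptors, the cAMP relay had a median difference of -0.08 over 23 genes, or -0.11 without ascending replicate 3. It was -0.051 without descending replicate 1. Without ascending replicate 3, 1 gene passed higher and 2 passed lower. Adcy2, an adenylyl cyclase gene, read 7.36, 7.44 and 8.12 on ascending replicates 1, 2 and 3 and 8.29, 8.11 and 8.13 on descending replicates 1, 2 and 3. Adcy2 was 1.71-fold lower without ascending replicate 3, at -0.78 ± 0.098 (SE) on the log2 scale (adjusted p = 0.00507 by limma). Adcy8, another cyclase gene, went the opposite way in that fit, at 0.53 ± 0.094 (SE, adjusted p = 0.0201 by limma), with 8.09 and 8.13 on ascending replicates 1 and 2 against 7.36 on replicate 3 and 7.54 to 7.68 in descending aorta. Rapgef3, the gene of the cAMP sensor Epac1, was lower there, at -0.47 ± 0.11 (SE, adjusted p = 0.0463 by limma), and Adcy4 differed by -0.38 ± 0.09 (SE, adjusted p = 0.0581 by limma). With descending replicate 1 left out too, Adcy2 and Adcy8 passed (adjusted p = 0.0197 and 0.0366 by limma), and Rapgef3, Pla2g12a and Prkcb did not (adjusted p = 0.129, 0.0655 and 0.0702 by limma). In that fit 2.35% of all genes passed.

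The calcium relay below Gq-coupled receptors such as FP had a median difference of -0.01 over 10 genes, which was 0.016 with arrays centred on their medians, 0.028 without ascending replicate 3, -0.06 without ascending replicate 2 and 0.068 without descending replicate 1. Prkcb, a protein kinase C gene, was higher by 0.52 ± 0.097 (SE) without ascending replicate 3 (adjusted p = 0.0251 by limma), and Itpr3, an inositol trisphosphate receptor gene, differed by -0.22 ± 0.09 (SE) over all arrays (adjusted p = 0.534 by limma). Of 9 cAMP response genes 4 had a higher and 5 a lower mean, with a median difference of -0.09, which was -0.0069 without ascending replicate 3, -0.142 without ascending replicate 1, -0.033 without ascending replicate 2, -0.02 without descending replicate 1 and 0.041 with array weights. Has2, a hyaluronan synthase gene that EP4 signalling induces in the ductus arteriosus, read 7.58, 7.27 and 7.06 on ascending replicates 1, 2 and 3 and 7.05, 6.78 and 6.84 on descending replicates 1, 2 and 3. Its highest value is on ascending replicate 1, as for Ptger4, but unlike Ptger4 its segments did not overlap, and the difference was 0.41 ± 0.14 (SE, adjusted p = 0.53 by limma). Has2 differed by 0.54 ± 0.13 (SE) without ascending replicate 3 and did not pass (adjusted p = 0.0615 by limma).

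**Figure D4:**
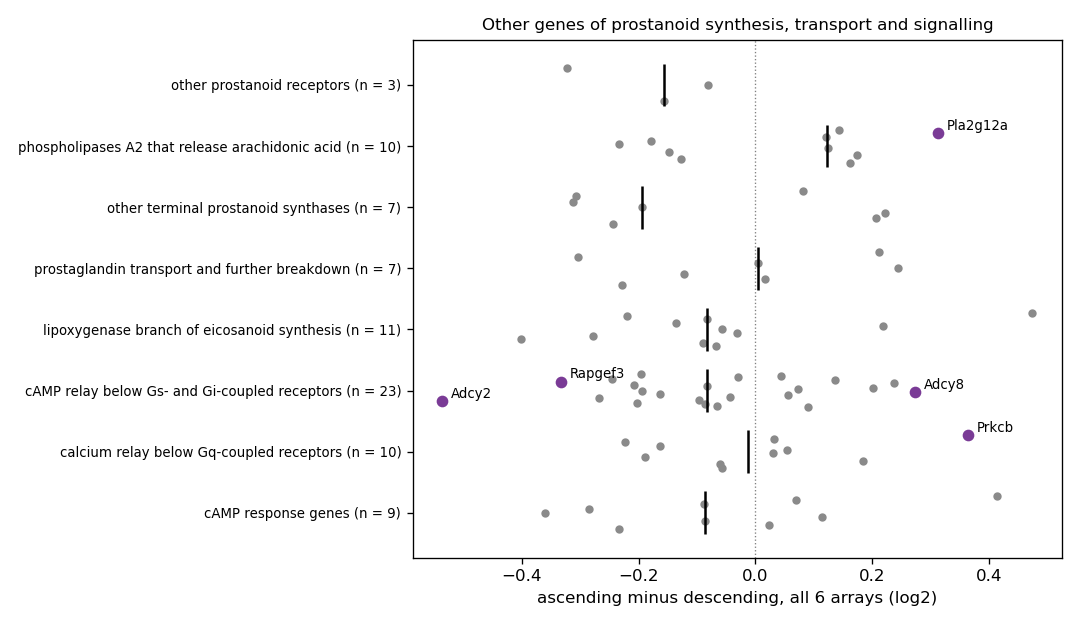
Difference between ascending and descending aorta over all 6 arrays (x axis, log2, positive where ascending is higher) for the 80 measured genes of 8 other pathway lists (y axis). Each point is a gene, short vertical lines are list medians, and the 5 named purple points are genes that passed an adjusted p of 0.05 without ascending replicate 3; every list median lies between -0.19 and 0.12.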

How the data were processed

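The deposited values are log2 probe set expression of 6 arrays, made by the authors with RMA, which subtracts background, equalises the arrays' distributions and summarises probes. Per the submitters' processing notes the tools were RMA and Partek 6.6. Neither settings nor genome build is given in the sources used here. RMA hides changes shared by most genes and shrinks those of dim genes. Of 35556 probe sets, 21789 carried 1 gene symbol in the platform annotation. The probe set with the highest mean was kept per gene, which left 19938 genes, with no filter.

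Segments were compared with limma 3.58.1 (lmFit and eBayes, R 4.3.3), ascending minus descending, two-sided, without covariates, and p-values were adjusted by Benjamini-Hochberg over the whole table and called at 0.05. The smallest p of an exact permutation test on these 6 arrays is 0.1, so none was run. Members, lists and tests were chosen with earlier results of these data known. All measured members are named. Of other lists the text names up to 4 genes with an unadjusted p under 0.05, or an adjusted p under 0.05 without ascending replicate 3. Ephx2 is named as well, for its place in the lipoxygenase list. Nearest measured neighbours, the thymus lists and leaving out 2 arrays were added after the values were seen. Alternatives were a repeated quantile normalization, median-centring, a filter at the 25th percentile, the mean of all probe sets, a variance trend, array weights, a replicate block and leaving out each array. On simulated data with 200 of 19938 genes changed, 84.4% of changes of 1 and 98.6% of changes of 2 on the log2 scale were recovered, and 2.73% of calls were false. The simulated noise was independent between genes, with the largest SDs capped, and no simulated array resembled the other segment as ascending replicate 3 did. These rates therefore do not carry over to the fit of all 6 arrays, where 0% of all genes passed. Python 3.11.15 was used for tables and plots.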

Additional observations from a re-analysis of the deposited data

How the results depend on the processing

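Over 14 alternatives the 9 genes gave 125 values of the segment difference, of which 122 kept their sign. The 3 that reversed were all of Ptger1: -0.0095 without descending replicate 1, -0.0192 without descending replicate 2 and -0.0215 without ascending replicate 3 and descending replicate 1. The number of the 9 that passed was 0 under the repeated quantile normalization, median-centring, the filter at the 25th percentile, the mean of all probe sets, the variance trend, array weights and the replicate block, where 0 of all genes passed too. It ranged from 0 to 3 when 1 array was left out, and over all genes from 0 to 933, with the upper end of both without ascending replicate 3. Without ascending replicate 3 and descending replicate 1 the counts were 2 of the 9 and 469 of all genes; the cause was not tested. Leaving out 1 array moved Ptger1 between -0.0192 and 0.172. The filter dropped Ptger2, whose difference could not be given there.

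The replicate numbers are labels of samples only. Deviations of same-numbered arrays correlated at -0.08, -0.05 and 0.02 across genes, and under the replicate block Ptgfr kept its difference of -0.67 (adjusted p = 0.602 by limma). Left-out arrays moved Ptger3 between 0.30 and 0.83, Ptgs2 between 0.28 and 0.82 and Ptgfr between -0.96 and -0.51. The signal over background of the probe sets is unknown, which limits what can be said of dim genes such as Ptger2.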
